A study of Mus musculus with 2 samples.

Results

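The lymphocyte genes described here are the transcripts by which T cells, natural killer (NK) cells and B cells are told from other cells of fat. Members were chosen by gene symbol from a list of 47, as the probe sets with that symbol in the platform annotation, and 42 of the 47 have a probe set, among 19572 probe sets with 1 gene symbol in all. Each of the 42 has 1 probe set, and Cd27, Lck, Il2rg, Foxp3 and Gata3 are not analysed here. The KO_A12 group holds male mice of the A/J-12SM strain, an A/J mouse with chromosome 12 of SM/J, that carry a frameshift deletion in exon 1 of Iah1 on both alleles, made by CRISPR/Cas9 and kept as 1 line by crossing homozygotes. The WT_A12 group holds male A/J-12SM mice without that deletion. All mice ate chow until 6 weeks of age and a high-fat diet for 12 weeks from then on, and were killed at 18 weeks after a 4 h fast. The RNA of epididymal fat from 3 mice was pooled for each group and hybridized to 1 Clariom S Mouse Array, which gives 1 log2 signal per probe set. With 1 pool on 1 array for each genotype, the spread between mice is unknown, differences stand without any check by replicates, and p-values cannot be given.

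T cells recognise antigen through a receptor that signals by way of the CD3 chains, B cells through a membrane antibody that signals by way of CD79a and CD79b, and NK cells kill with granules of perforin and granzymes. In visceral fat these cells are few beside adipocytes, macrophages and vessels. They are known to gather in small lymphoid clusters of the tissue and to change in number and kind in obesity. RNA of whole tissue mixes all of these cells, so fewer cells of a type and less RNA per cell cannot be told apart.

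Most of the lymphocyte genes had signals within the range of the array's background controls, and few differed between the pools. In the KO_A12 pool 8 of the 42 had a log2 signal above every background control, and in the WT_A12 pool 5. Only Cd4, Il7r, Ikzf2 and Jchain did so on both arrays. At the study's cutoffs of a 2-fold difference and a log2 signal over 7, 1 gene, Il7r, was lower in the KO_A12 pool and 1 gene, Cd247, was higher. Over all probe sets with a symbol, 0.777% were called lower and 0.536% were called higher. Across the 42 genes, 26 had a higher signal in the KO_A12 pool and 16 a lower one, and the log2 difference (KO_A12 minus WT_A12) had a median of 0.19. The median over all 19572 probe sets was -0.0012, with 49.7% of them above 0 and 50.1% below. A difference over 0.5 was found for 13 of the 42 genes, against 9.18% of all probe sets, and one under -0.5 for 3 genes (Il7r, Nkg7 and Ncr1), against 9.59% of all probe sets.

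Il7r and Cd247, the genes that passed these cutoffs, and Cd3e and Cd79a, which encode defining chains of the T cell and B cell receptors, are shown by the 250 bases before their start in RefSeq (GRCm38.p6), read 5′ to 3′ on the strand of the gene. Capitals mark AGGAAGT or its reverse complement ACTTCCT, a form of the site bound by ETS transcription factors, which are known for their part in lymphocyte promoters. The windows lie at chr15:9529877-9530126 on the minus strand for Il7r, chr1:165788431-165788680 on the plus strand for Cd247, chr9:45009612-45009861 on the minus strand for Cd3e and chr7:24897247-24897496 on the plus strand for Cd79a.
Il7r: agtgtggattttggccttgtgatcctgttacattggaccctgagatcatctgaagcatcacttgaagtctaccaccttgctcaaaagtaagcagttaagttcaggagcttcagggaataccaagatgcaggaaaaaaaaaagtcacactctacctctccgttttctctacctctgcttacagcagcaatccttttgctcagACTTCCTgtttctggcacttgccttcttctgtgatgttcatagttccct
Cd247: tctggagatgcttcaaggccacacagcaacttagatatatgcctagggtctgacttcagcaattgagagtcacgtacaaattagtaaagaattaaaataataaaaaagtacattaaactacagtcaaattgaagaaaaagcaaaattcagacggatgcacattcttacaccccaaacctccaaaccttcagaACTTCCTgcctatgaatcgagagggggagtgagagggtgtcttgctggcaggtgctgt
Cd3e: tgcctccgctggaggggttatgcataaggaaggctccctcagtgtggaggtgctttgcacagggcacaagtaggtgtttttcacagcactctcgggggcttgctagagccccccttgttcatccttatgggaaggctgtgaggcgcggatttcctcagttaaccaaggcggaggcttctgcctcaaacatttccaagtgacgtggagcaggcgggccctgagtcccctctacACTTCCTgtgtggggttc
Cd79a: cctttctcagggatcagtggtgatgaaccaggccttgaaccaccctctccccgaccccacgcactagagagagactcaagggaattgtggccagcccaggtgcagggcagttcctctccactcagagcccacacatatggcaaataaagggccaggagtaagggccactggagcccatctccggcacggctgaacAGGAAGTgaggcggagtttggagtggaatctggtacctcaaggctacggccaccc
In all 4 windows the motif occurs once, and its first base lies 49 bases before the start in Il7r, 58 in Cd247, 18 in Cd3e and 55 in Cd79a.

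The promoter table holds 30 of the 42 genes, and 9 of these 30 (30.0%) have the motif on either strand, against 8.8% of 27025 genes with a window of the same length. These are Cd247, Cd3d, Cd3e, Cd5, Il7r, Il2ra, Tbx21, Prf1 and Cd79a. TGTGGT, a form of the RUNX site, was found on either strand in 8 of the 30 (26.7%), against 15.9% of all genes, among them Gzma, Gzmb, Prf1, Nkg7 and Ncr1. Neither the octamer ATGCAAAT nor TATAAA was found in any of the 30, against 1.81% and 14.3% of all genes. None of the 4 motifs or their reverse complements lies within another, though neighbouring matches may share bases at their ends. The windows of the 30 genes had a median GC content of 49.4% and a median of 3.5 CpG, against 52.0% and 6 over all genes. The 9 genes with AGGAAGT include Il7r at a log2 difference of -1.01 and Cd247 at 1.08, so that the motif stands in genes of both directions. A match is a string of letters and not a shown binding site, and the ETS motif was chosen after these sequences had been read.

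Background differed with base composition, which bears on every weak signal below. The 23 background controls are sets of probes without a target, each with a fixed number of G and C bases per probe. Controls with 10 to 18 such bases had log2 signals between 2.83 and 3.87 on the arrays, whereas those with 3 to 6 reached 7.21 and those with 19 to 25 reached 6.70. The highest control had 7.21 on the KO_A12 array and 7.14 on the WT_A12 array, the median control 5.61 and 5.75. The sources used here do not give the base composition of each gene's probes, so the highest control was taken as the limit above which a signal was counted as over background. By that limit 33 of the 42 genes were over background on neither array, and 21 were at or below the median control on both. Of all probe sets with a symbol, 47.3% exceeded the limit on at least 1 array, and of the lymphocyte genes 21.4% did. These counts depend on the choice of control. The controls with 10 to 18 G and C bases, at most 3.87, lay below all 42 genes on the KO_A12 array. On the WT_A12 array they lay below all but Bcl11b, which had 3.65. The array also carries 5222 rows named as negative controls, with a median log2 signal of 6.47 on the KO_A12 array and 6.42 on the WT_A12 array, a 95th percentile of 10.27 and 10.23 and a highest signal of 18.48 on each, so that some of them are far brighter than any background control. By their 95th percentile Il7r alone, of the 42, was above the limit, on both arrays, and Cd4, Ikzf2 and Jchain were within it. In what follows, over background means over the highest of the 23 background controls.

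**Figure D1:**
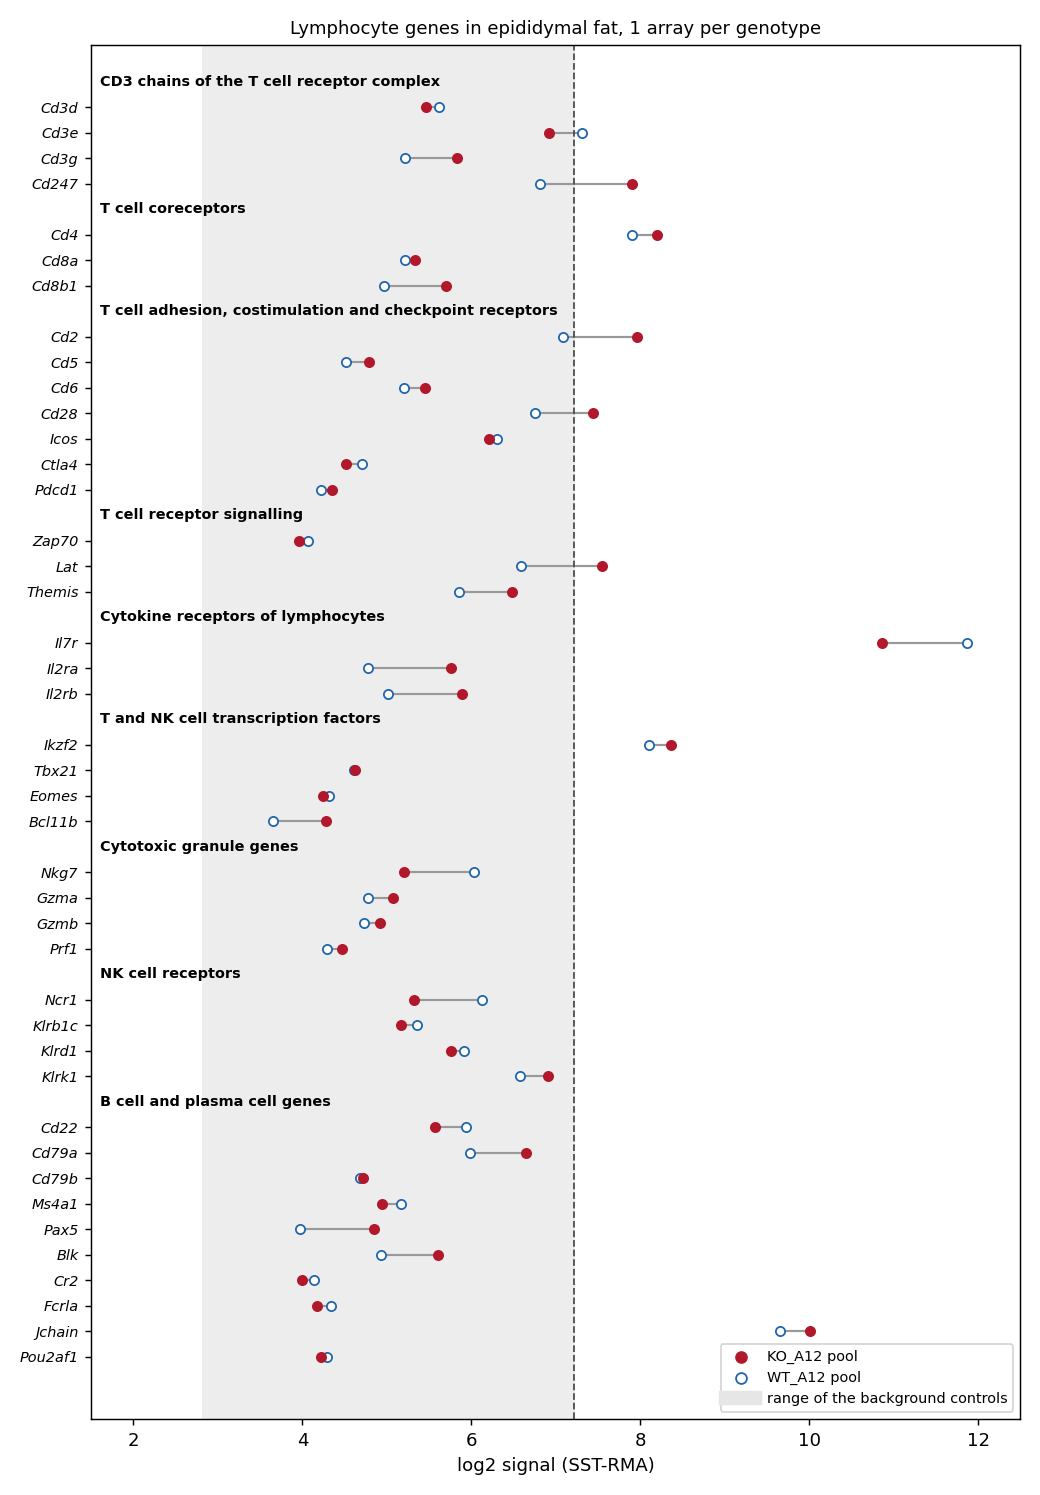
Log2 signal (x axis) of the 42 lymphocyte genes (rows, grouped by role) in the KO_A12 pool (filled red) and the WT_A12 pool (open blue), 1 array each, with the range of the 23 background controls in grey and the highest control, 7.21, as a dashed line. Only Cd4, Il7r, Ikzf2 and Jchain lie above the background controls in both pools, and Il7r is the gene with the lower KO_A12 signal among these 4.

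Among the CD3 chains, which carry the signal of the T cell receptor into the cell, the differences ran both ways. Cd247, the zeta chain, had a log2 signal of 7.90 in the KO_A12 pool and 6.82 in the WT_A12 pool, a log2 difference of 1.08. Because its WT_A12 signal lies under the highest background control, the KO_A12 signal was at least 1.69-fold higher, the fold over that control. Here and below, such a bound allows for the background only and not for scatter between the arrays or between mice. Cd3e, the epsilon chain, had 6.92 in the KO_A12 pool and 7.31 in the WT_A12 pool, which puts it over background in the WT_A12 pool only. Counted over the highest control of the KO_A12 array, Cd3e was at least 1.07-fold lower in the KO_A12 pool, and the raw log2 difference was -0.39. Cd3g, the gamma chain, had 5.84 in the KO_A12 pool and 5.21 in the WT_A12 pool, and Cd3d, the delta chain, 5.46 and 5.61. The last 2 genes were over background in neither pool. Their differences of 0.63 and -0.15 are between signals within the range of the background controls. All 4 chains are needed for the complete receptor.

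The difference of Cd247 lay outside the spread of other probe sets of like signal. The probe sets with a mean log2 signal from 7 to 8 had log2 differences between -0.94 and 0.89 in their central 95%. In such bands of 1 unit of mean signal, 2 lymphocyte genes lay above the central 95%, Cd247 and Lat, and 1 lay below, Il7r. By construction 2.53% of all probe sets lie on each side, against 4.76% and 2.38% of the 42 genes. These bands describe how far probe sets scatter between the 2 arrays and hold no spread between mice.

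**Figure D2:**
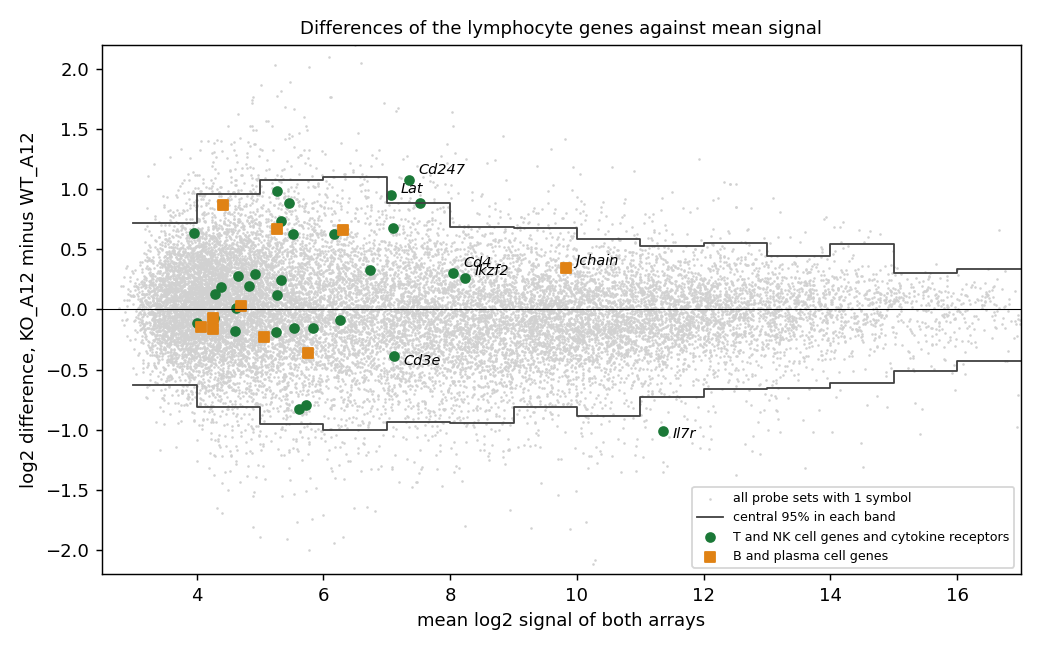
Log2 difference, KO_A12 minus WT_A12 (y axis), against the mean log2 signal of both arrays (x axis) for all 19572 probe sets with a symbol (grey), the T and NK cell genes with the cytokine receptors (green circles) and the B and plasma cell genes (orange squares). Steps show the central 95% of all probe sets in each band of 1 unit, where the lowest and highest bands also hold the probe sets beyond them. Probe sets with a difference beyond 2.2 or a mean signal over 17 lie outside the plot. Il7r lies below the steps at -1.01, and Cd247 at 1.08 and Lat at 0.95 lie above them.

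Of the coreceptors, which bind MHC molecules beside the T cell receptor, Cd4 was over background in both pools. Its log2 signal was 8.20 in the KO_A12 pool and 7.90 in the WT_A12 pool, a log2 difference of 0.30. The band of mean signal from 8 to 9 had a central 95% from -0.94 to 0.69, so that Cd4 lay inside it. CD4 marks helper and regulatory T cells and is found on some myeloid cells too. Cd8a, a chain of the coreceptor of cytotoxic T cells, had 5.33 in the KO_A12 pool and 5.21 in the WT_A12 pool. Cd8b1, its partner chain, had 5.70 in the KO_A12 pool and 4.97 in the WT_A12 pool. Neither CD8 gene was over background in either pool, and their signals lay within the range of the background controls.

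Among the 7 measured adhesion, costimulation and checkpoint receptors, 5 had a higher signal in the KO_A12 pool (median log2 difference 0.25). Cd2, an adhesion receptor of T and NK cells, had log2 signals of 7.96 in the KO_A12 pool and 7.08 in the WT_A12 pool. Its difference of 0.88 was just inside the central 95% of its band, which ends at 0.89, and its KO_A12 signal was at least 1.77-fold higher than the WT_A12 background. Cd28, the main costimulatory receptor of T cells, had 7.43 in the KO_A12 pool and 6.76 in the WT_A12 pool, at least 1.23-fold higher. Both were over background in the KO_A12 pool only. Icos, a costimulator related to CD28, had 6.21 in the KO_A12 pool and 6.30 in the WT_A12 pool. The scavenger-related receptors Cd5 and Cd6, which dampen T cell receptor signals, had differences of 0.28 and 0.25 between signals of at most 5.45. The checkpoint receptors, which restrain activated T cells, had signals of 4.52 and 4.70 for Ctla4 and 4.35 and 4.22 for Pdcd1 in the KO_A12 and WT_A12 pools. None of Cd5, Cd6, Icos, Ctla4 and Pdcd1 was over background.

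Behind the receptor, Lat, the membrane adaptor on which T cell receptor signalling complexes assemble, had a log2 signal of 7.54 in the KO_A12 pool and 6.59 in the WT_A12 pool. Its log2 difference of 0.95 exceeded the central 95% of its band and missed the 2-fold cutoff, and measured against the WT_A12 background it was at least 1.32-fold higher. Themis, a regulator of T cell receptor signals in thymocytes, had 6.48 in the KO_A12 pool and 5.85 in the WT_A12 pool. Zap70, the kinase recruited to phosphorylated CD3 chains, had 3.96 in the KO_A12 pool and 4.07 in the WT_A12 pool. Themis and Zap70 were not over background. Of the genes in the receptor and its immediate signalling, Cd247 and Lat were thus over background in the KO_A12 pool only. Cd3e was over background in the WT_A12 pool only, and Cd3d, Cd3g, Zap70 and Themis in neither.

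Il7r, the alpha chain of the receptor for interleukin 7 and, with another chain, for TSLP, gave the opposite direction. Its log2 signal was 10.86 in the KO_A12 pool and 11.87 in the WT_A12 pool, both far above the background controls. The log2 difference of -1.01 is 0.495 of the WT_A12 signal, and the central 95% of probe sets with a mean signal from 11 to 12 ran from -0.72 to 0.53. The call rests on a narrow margin, since the difference was -0.99 after quantile normalization of the 2 arrays and -0.97 after a trend on mean signal was removed, both short of 2-fold. Il7r is made by T cells and innate lymphoid cells and is not restricted to them. The receptor chains for interleukin 2 gave weak signals. Il2ra, the alpha chain that marks regulatory and activated T cells, had 5.76 in the KO_A12 pool and 4.77 in the WT_A12 pool. Il2rb, the chain shared by the receptors for interleukins 2 and 15, had 5.89 in the KO_A12 pool and 5.01 in the WT_A12 pool. Neither was over background, and their differences of 0.99 and 0.88 lay inside the central 95% of their band, -0.95 to 1.08.

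Ikzf2 (Helios), a transcription factor of regulatory T cells and of some NK cells, had a log2 signal of 8.37 in the KO_A12 pool and 8.11 in the WT_A12 pool, a log2 difference of 0.26 inside the central 95% of its band. It was the only transcription factor of the group over background. Tbx21 (T-bet), which directs type 1 helper and NK cells, had 4.63 in the KO_A12 pool and 4.61 in the WT_A12 pool. Its relative Eomes had 4.24 in the KO_A12 pool and 4.31 in the WT_A12 pool. Bcl11b, which T cells need to keep their identity, had 4.28 in the KO_A12 pool and 3.65 in the WT_A12 pool. These 3 factors were below the median background control in both pools.

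The cytotoxic and NK cell genes gave no signal over background in either pool. Of the granule genes, Gzma had log2 signals of 5.07 in the KO_A12 pool and 4.78 in the WT_A12 pool, and Gzmb, the other granzyme, 4.92 and 4.73. Prf1, the pore-forming perforin, had 4.47 in the KO_A12 pool and 4.29 in the WT_A12 pool. Nkg7, a granule membrane protein, had 5.20 in the KO_A12 pool and 6.03 in the WT_A12 pool, the lowest difference of the genes without a signal over 7, -0.83. The central 95% of its band began at -0.95. Ncr1 (NKp46), the receptor that defines NK cells across strains, had 5.33 in the KO_A12 pool and 6.12 in the WT_A12 pool, a difference of -0.80 in the same band. Klrb1c, which carries the antigen by which NK cells are stained in some strains, had a difference of -0.19, and Klrd1 (CD94), the partner of the NKG2 receptors, one of -0.15. Klrk1 (NKG2D), an activating receptor of NK and cytotoxic T cells, had 6.90 in the KO_A12 pool and 6.58 in the WT_A12 pool, over the 95th percentile of that array's background controls (6.83) but under the highest control. Thus 3 of the 4 NK cell receptors and 1 of the 4 granule genes had a lower KO_A12 signal, none of them over background. Klrb1c and the granzymes have close relatives in the genome with which their probes may share signal.

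Of the 10 B and plasma cell genes, Jchain alone was over background. Jchain, which joins the units of IgM and of dimeric IgA and is made by plasma cells, had a log2 signal of 10.003 in the KO_A12 pool and 9.656 in the WT_A12 pool. The log2 difference of 0.35 lay inside the central 95% of its band, -0.81 to 0.67. Cd79a, the alpha signalling chain of the B cell receptor, had 6.64 in the KO_A12 pool and 5.99 in the WT_A12 pool, and Cd79b, the beta chain, 4.71 and 4.68. Although the proteins act as a pair, only the probe set of Cd79a gave a signal above the median background control, in both pools. Ms4a1 (CD20) had 4.94 in the KO_A12 pool and 5.17 in the WT_A12 pool, and Cd22, an inhibitory receptor of B cells, 5.57 and 5.94. Pax5, the factor that fixes B cell identity, had 4.85 in the KO_A12 pool and 3.98 in the WT_A12 pool, the highest difference of the group at 0.87. Blk, a Src family kinase of B cells, had 5.60 in the KO_A12 pool and 4.93 in the WT_A12 pool. Cr2 (CD21), a complement receptor, Fcrla, an Fc receptor-like protein, and Pou2af1 (OBF-1), a coactivator of B cell transcription, had signals of at most 4.34 on either array and differences between -0.16 and -0.07. The 10 genes split evenly, with 5 higher and 5 lower in the KO_A12 pool and a median log2 difference of -0.02, and none passed the cutoffs.

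Differences of the weak genes leaned upward, and those of weak probe sets in general did so to a lesser degree. Of the 33 lymphocyte genes with a mean log2 signal under 7, 19 gave a higher KO_A12 signal, and their median was 0.12, and 9 had a difference over 0.5 and 2 one under -0.5. Among the 10355 probe sets with a symbol and a mean signal under 7, 54.8% were higher, with a median of 0.04, and 12.6% had a difference over 0.5 and 9.23% one under -0.5. Of the 9 genes with a log2 signal over 7 on at least 1 array, 7 were higher in the KO_A12 pool, and the exceptions were Il7r and Cd3e. Their median difference was 0.35, but Cd247, Cd28 and Lat reach a signal over 7 only in the KO_A12 pool and Cd3e only in the WT_A12 pool. Such a gene enters this group through the array on which it is high. The 5 with a signal over 7 in both pools were Cd4, Cd2, Il7r, Ikzf2 and Jchain.

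Several of these genes are neighbours in the genome, with no other protein-coding gene of RefSeq (GRCm38.p6) between them, and neighbours did not always share a sign. Cd3g, Cd3d and Cd3e follow each other on chromosome 9, with log2 differences of 0.63, -0.15 and -0.39. On chromosome 1 the costimulatory genes Cd28, Ctla4 and Icos follow each other with 0.68, -0.18 and -0.08. Cd8b1 and Cd8a on chromosome 6 had 0.73 and 0.12. Klrd1 and Klrk1, in the NK receptor cluster of chromosome 6, had -0.15 and 0.32, and Cd5 and Cd6 on chromosome 19 had 0.28 and 0.25. Except for Cd28 in the KO_A12 pool and Cd3e in the WT_A12 pool, none of these signals was over background, and the differences are those of the raw signals.

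Other genes of the same cells gave the same picture of few levels over background. Of 28 further T cell genes 21 were measured, 12 were higher and 9 lower in the KO_A12 pool (median 0.05), and 0 passed the cutoffs. Itgae (CD103), the integrin of tissue-resident T cells and some dendritic cells, had log2 signals of 7.09 in the KO_A12 pool and 6.10 in the WT_A12 pool. Cxcr3, a chemokine receptor of type 1 T cells, had 7.39 in the KO_A12 pool and 7.03 in the WT_A12 pool, at least 1.19-fold higher. Thy1, which T cells share with stromal cells, had 7.65 in the KO_A12 pool and 8.48 in the WT_A12 pool. Prkcq, the T cell protein kinase C theta, had 8.94 in the KO_A12 pool and 9.05 in the WT_A12 pool. In this list too the genes over background ran both ways. Among 17 measured genes of NK and innate lymphoid cells, 10 were higher and 7 lower (median 0.02) and 0 were called, and the 2 with a signal over 7, Rora and Zbtb16, are widely expressed transcription factors with differences of -0.37 and 0.15.

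The further B cell genes stood apart by their members over background. Of 19 measured genes 10 were higher and 9 lower (median 0.10), yet all 6 with a log2 signal over 7 were lower in the KO_A12 pool. Cd72, a coreceptor of B cells, had 8.37 in the KO_A12 pool and 10.19 in the WT_A12 pool, a log2 difference of -1.82, and Cd37, a tetraspanin of leukocytes, had 10.77 and 12.08, a difference of -1.30. These were the 2 genes of the list that passed the cutoffs. Cd180, a receptor related to Toll-like receptors, had a difference of -0.79 and Blnk, the adaptor of the B cell receptor, of -0.61. Cd72, Cd37, Cd180 and Blnk are also made by myeloid cells. Of the macrophage markers 12 of 13 were lower in the KO_A12 pool (median log2 difference -0.67), and all 13 had a signal over 7 in both pools. Of the 10 B and plasma cell genes given above, 7 were at or below the median background control in both pools. Cd79a and Jchain were above it in both pools, and Cd22 in the WT_A12 pool only. The part of macrophage RNA in the lower signals of Cd72, Cd37, Cd180 and Blnk was not tested.

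Adaptors and kinases that act behind both T and B cell receptors were lower in the KO_A12 pool in 9 of 11 cases (median log2 difference -0.40). Syk, the kinase that B cells and myeloid cells use in the place of ZAP-70, had log2 signals of 9.71 in the KO_A12 pool and 10.74 in the WT_A12 pool and was the only one called, at -1.03. Vav1, an exchange factor of blood cells, had 7.88 in the KO_A12 pool and 8.83 in the WT_A12 pool. Plcg1, a phospholipase C of many cell types, was higher, with 12.10 in the KO_A12 pool and 11.25 in the WT_A12 pool, and so was Plcg2, its relative in blood cells, with 8.35 and 8.07. Grap2, an adaptor of T cells, had 6.54 in the KO_A12 pool and 7.34 in the WT_A12 pool, at least 1.09-fold lower. Most of these genes are shared with macrophages, whose markers were lower as given above, and the part of macrophage RNA in their differences was not tested.

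Ligands and partners of the lymphocyte receptors were over background on at least 1 array in 14 of 20 cases, and ran both ways (9 higher, 11 lower, median -0.12). Ccl21a, the chemokine that draws CCR7-bearing T cells into lymphatics and lymph nodes, had log2 signals of 13.03 in the KO_A12 pool and 11.99 in the WT_A12 pool and was called higher at 1.04. Cd80, a ligand of CD28 and CTLA-4 on antigen-presenting cells, had 8.11 in the KO_A12 pool and 9.23 in the WT_A12 pool and was called lower at -1.12. Cd48, a ligand of CD2 in mice, had 8.27 in the KO_A12 pool and 8.83 in the WT_A12 pool. H2-T23 (Qa-1), the ligand of CD94-NKG2 receptors, had 6.85 in the KO_A12 pool and 7.35 in the WT_A12 pool, at least 1.10-fold lower. For the interleukin 7 receptor, Il7 was not over background, with 6.04 in the KO_A12 pool and 5.83 in the WT_A12 pool, and Tslp had 7.33 and 7.66.

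**Figure D3:**
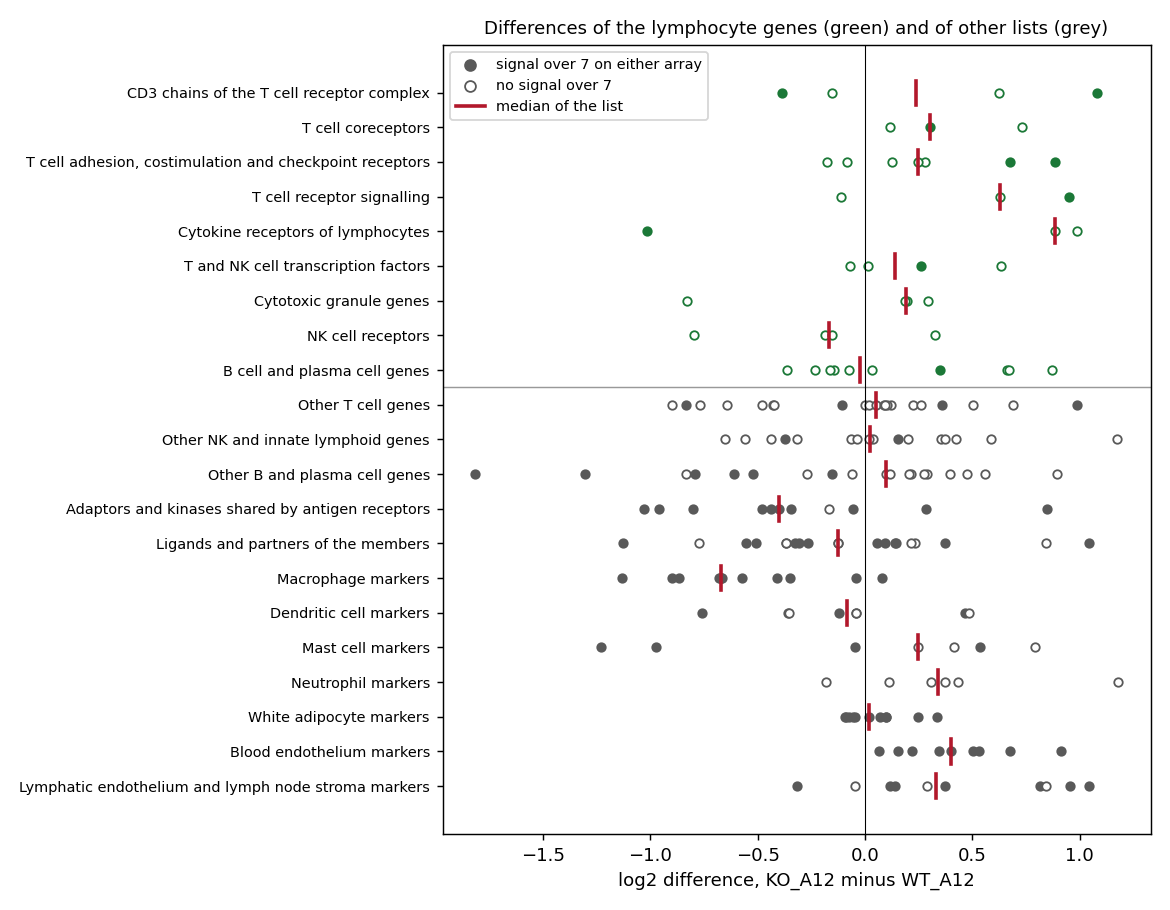
Log2 difference, KO_A12 minus WT_A12 (x axis), of each measured gene in the 9 groups of lymphocyte genes (green) and in 12 other lists (grey), with filled points for genes with a log2 signal over 7 on either array, open points for the rest and red bars for the median of each list. All lymphocyte groups but the coreceptors have genes on both sides of 0, most of them open points, and 12 of 13 macrophage markers lie below 0.

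The tissue and its other cells set the frame for these values. Iah1, the targeted gene, had log2 signals of 8.35 in the KO_A12 pool and 9.52 in the WT_A12 pool, a log2 difference of -1.17. By real-time qPCR and western blot, the paper detected neither Iah1 mRNA nor its protein in KO_A12 mice. What the array signal left in the KO_A12 pool stems from was not tested. The 11 white adipocyte markers had signals of at least 15.10 and a median log2 difference of 0.02. Compared with the 42 lymphocyte genes (median 0.19), macrophage markers were lower as given above. Dendritic cell markers had a median of -0.08, with 6 of 8 lower. Mast cell markers had a median of 0.25, with 4 of 7 higher. Of the 4 mast cell markers with a signal over 7 on either array, Cpa3 (-1.23), Tpsb2 (at least 1.65-fold) and Mcpt4 (-0.05) were lower. Kit was higher at 0.53. On the log2 scale the summed signal of the 13 macrophage markers was 17.03 in the KO_A12 pool and 17.59 in the WT_A12 pool. Blood endothelium markers were higher in 9 of 9 cases (median 0.40) and those of lymphatic endothelium and lymph node stroma in 8 of 10 (median 0.33), with Mmrn1 at least 1.81-fold and Prox1 at least 1.14-fold higher beside Ccl21a. No test compares these lists with the lymphocyte genes, since each group is 1 array.

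Genes typical of other organs also differed between the pools, and the source of their RNA was not tested. All 8 seminal vesicle genes were over background in the KO_A12 pool only, at least 2.49-fold to 56.6-fold higher. Of the 12 liver plasma protein genes 8 were over background in the KO_A12 pool only, at least 1.38-fold to 38.1-fold higher, and Alb, over background in both, had 15.99 in the KO_A12 pool and 8.22 in the WT_A12 pool. Of the 8 testis germ cell genes 2 were over background in the WT_A12 pool only, 2 in both and 4 in neither, and all 8 signals were lower in the KO_A12 pool. The log2 of the summed linear signals was 16.17 in the KO_A12 pool and 9.30 in the WT_A12 pool for the liver genes. For the seminal vesicle genes it was 14.03 and 7.36. Whether RNA from the same source adds to the signals of Cd247, Cd2, Cd28 and Lat was not tested. The genotype and the pool cannot be told apart.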

How the data were processed

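Total RNA of epididymal fat, pooled from 3 mice per genotype and labelled from 100 ng, was measured on 1 Clariom S Mouse Array per pool. The deposited values are log2 signals that the authors computed in the GeneChip Console Software 1.3.0 by SST-RMA, which the methods spell STT-RMA, a procedure of signal transformation, background correction, normalization across arrays and probe summarization, while RMA stands in the submitters' processing notes. No genome build for the values was found, as it is not given in the sources used here. Precision is limited by the number of arrays, and errors could not be computed. Because the deposited values were normalized together, a real shift of the whole array would not be visible in them.

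Of 28846 rows, 22206 remained without the 6640 controls. Of these 22206, the platform annotation gives exactly 1 symbol to 19572, and the other 2634 were left out. All 19572 matched RefSeq genes (GRCm38.p6) by Entrez ID. Differences are KO_A12 minus WT_A12 on the log2 scale. The study's cutoffs are a 2-fold difference and a linear signal over 128, 7 on the log2 scale, and the array it applies to is not stated. Here the brighter array was used, so that higher calls needed a difference over 1 and over 7 for the signal of KO_A12, lower calls a difference under -1 and over 7 for that of WT_A12. A gene over the highest background control on 1 array only is given as "at least" the fold over that control on the other array. The central 95% of differences was taken in bands of 1 unit of mean signal, with all probe sets under 4 in 1 band and all from 16 up in another. Every member is named, and of each other list up to 4 genes that differed most in either direction, if their signal passed 7 on an array. Outside this rule, Il7 and Tslp, as the ligands of the Il7r receptor, were named after their values were seen. Plcg2, the other higher gene of its list beside Plcg1, was also named outside the rule. The members, the 9 groups, the 15 other lists and the rules were chosen with earlier results of these data known. Calls were tested on simulated data. Promoter windows came from the RefSeq table by Entrez ID. The alternatives were 3 further scalings (quantile normalization, median centring and removal of a lowess trend of span 0.3), other cutoffs and other choices of members. Computation ran in Python 3.11.15 on numpy 2.4.6 and pandas 2.3.3, with statsmodels 0.14.6 and matplotlib 3.10.9.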

Additional observations from a re-analysis of the deposited data

How the results depend on the processing

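No paired analysis was possible because there is 1 array per genotype, and no replicate could be left out. The single lower call, Il7r, was lost (0 lower) under quantile normalization, after the lowess trend was removed and at 3-fold, with differences of -0.99 and -0.97 under these 2 scalings, and the cause was not tested. The single higher call, Cd247, was lost (0 higher) at a signal cutoff of 8, if both arrays had to exceed 7 and at 3-fold, and at 1.5-fold 4 genes were higher (Cd247, Cd2, Cd28 and Lat). The median difference of 0.19 was 0.34 over the 10 genes above the 95th percentile of the background controls on at least 1 array, with 2 lower. Of these 10 genes, Cd247, Cd28, Lat and Klrk1 passed in the KO_A12 pool only and so enter through the array on which they are high. Over the 9 genes with a mean signal over 7 the median was 0.35, again with 2 lower. Without each of the 9 groups in turn the median of the remaining genes ran from 0.18 to 0.22. Over all probe sets the calls were 167 higher at a signal cutoff of 6, 67 higher at 8, 38 higher if both arrays had to exceed 7, 280 higher and 272 lower with no signal cutoff, 418 and 748 at 1.5-fold, and 49 and 16 at 3-fold, since by construction looser cutoffs admit more probe sets. Under the 3 scalings no member moved by more than 0.09, and the signs that turned were those of Tbx21 and Cd79b, under quantile normalization and the lowess trend. The scalings started from signals already normalized between arrays and cannot undo that step. Signals under the highest background control limit what 33 of the 42 genes can show, and that count depends on the choice of this control.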
